A study of Mus musculus with 294 samples.

Results

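The 49 genes described here act in G2 and mitosis, the stages in which a cell with duplicated chromosomes condenses them, lines them up on a spindle and divides. They were taken as a list of names by function, drawn up with earlier results of these data known, and all 49 were among the 15124 genes of the count table. By role the list holds 7 genes of the CDK1 engine, 4 of ubiquitin ligases and their partners, 7 of mitotic kinases and the chromosomal passenger complex, 7 of the centromere and kinetochore, 13 of the spindle and its motors, 4 of the spindle midzone and cytokinesis, and 7 of chromosome structure and chromatin.

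The cells were single neural crest derivatives from the outflow tract of the embryonic mouse heart, the vessel stem that the neural crest helps to divide into aorta and pulmonary artery. The mice carried Wnt1-Cre, a recombinase driven in the neural crest, and R26-EYFP, a reporter that turns yellow fluorescent after recombination, so that EYFP marks descent from Wnt1-Cre cells and not a present cell type. The design names embryonic days 17.5, 14.5, 12.5 and 11.5, and the cells were sorted for EYFP and captured on a Fluidigm C1 device, but the labels give no stage, animal or chip for a single cell. All cells therefore form 1 group and count as 1 sample, with no test between groups of cells, and the intervals below cover counting error only.

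Entry into mitosis is driven by CDK1, a kinase that works only when bound to cyclin A or cyclin B. Exit begins when the anaphase-promoting complex, a ubiquitin ligase switched on by Cdc20, marks cyclin B and securin for destruction. Most of the genes are repressed in resting cells by the DREAM complex, which reaches DNA at CHR elements such as TTTGAA, and are activated later in the cycle by B-Myb and FoxM1, with NF-Y bound at CCAAT boxes nearby.

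Promoter sequence is shown for the genes of the CDK1 engine that had a promoter window and for Cdc20 and Top2a. It is the kind of sequence through which such genes are known to be controlled. Its part in how the members varied across these cells was not tested. Each line gives the 160 bases up to the base before the annotated start, 5′ to 3′ on the gene's own strand, from RefSeq on GRCm38.p6, with the CHR form TTTGAA, its variant TTTAAA and the box CCAAT on either strand in capitals.
Cdk1 (chr10:69352913-69353072, minus strand): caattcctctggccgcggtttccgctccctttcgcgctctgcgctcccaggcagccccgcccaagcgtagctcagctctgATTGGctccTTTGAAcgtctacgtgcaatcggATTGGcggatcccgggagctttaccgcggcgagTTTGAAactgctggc
Ccnb1 (chr13:100786487-100786646, minus strand): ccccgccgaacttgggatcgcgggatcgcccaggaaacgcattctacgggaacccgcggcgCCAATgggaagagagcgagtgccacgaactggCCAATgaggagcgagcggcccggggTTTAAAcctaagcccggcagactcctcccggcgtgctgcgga
Ccnb2 (chr9:70421555-70421714, minus strand): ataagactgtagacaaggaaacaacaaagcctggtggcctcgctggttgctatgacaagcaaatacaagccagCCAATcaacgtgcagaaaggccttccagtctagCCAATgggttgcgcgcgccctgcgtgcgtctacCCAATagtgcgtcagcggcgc
Cks1b (chr3:89418292-89418451, minus strand): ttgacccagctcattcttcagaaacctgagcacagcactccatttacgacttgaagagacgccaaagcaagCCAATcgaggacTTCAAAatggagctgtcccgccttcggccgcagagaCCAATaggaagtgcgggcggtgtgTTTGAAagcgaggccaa
Cks2 (chr13:51645072-51645231, plus strand): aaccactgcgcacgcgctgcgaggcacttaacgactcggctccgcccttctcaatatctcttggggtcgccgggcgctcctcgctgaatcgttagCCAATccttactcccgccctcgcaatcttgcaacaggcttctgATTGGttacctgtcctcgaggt
Cdc20 (chr4:118437344-118437503, minus strand): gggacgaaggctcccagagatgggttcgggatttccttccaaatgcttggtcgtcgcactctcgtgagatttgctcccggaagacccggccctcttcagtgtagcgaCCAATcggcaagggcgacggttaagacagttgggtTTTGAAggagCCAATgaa
Top2a (chr11:99024190-99024349, minus strand): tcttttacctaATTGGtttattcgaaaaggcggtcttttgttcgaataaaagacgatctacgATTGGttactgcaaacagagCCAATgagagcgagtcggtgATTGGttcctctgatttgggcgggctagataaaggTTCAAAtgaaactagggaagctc
Cdk1 had TTTGAA beginning 71 and 15 bases before its start, and Cdc20 had it 18 bases before, with CCAAT at 53 and 8. Ccnb1 had no TTTGAA in the stretch shown but TTTAAA at 42 and CCAAT at 99 and 67, and Ccnb2 had CCAAT at 87, 54 and 21 in the stretch shown, with a TTTGAA further upstream in its window. A match is a description of the letters, not evidence of a bound site.

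Of the 49 members, 42 matched the promoter table, with 47 windows of 250 bases before a start. TTTGAA stood on either strand in 17 of the 47 windows (36.2%), against 11.1% of windows of all genes in the count table that matched and 15.99% of all windows. TTTAAA, which reads the same on both strands, stood in 19.1% against 8.84% and 12.1%. CCAAT was in 78.7% of the members' windows against 35.1% and 33.8%, and at least 2 copies were in 55.3% against 12.2% and 10.1%. TTTGAA and CCAAT occurred together in 31.9% against 4.09% and 5.55%. Matches of these motifs overlapped each other 1 time in the members' windows. These shares are not adjusted for base composition. Ccna2, Smc4, Cdca2, Cdc25c, Tpx2, Aurkb and Dlgap5 are named only.

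The shallowest cell had 34046 reads, the median cell 1204543 and the deepest 3033857, and values are given as CPM, a read count scaled to the cell's total, which corrects for the depth of a cell but not for the length of a gene. Cell names begin with a digit from 1 to 7, whose meaning the labels do not give, and the cells are described in 7 name series by this digit, with 58, 48, 38, 38, 34, 34 and 44 cells. Series 1 stood apart from the rest, where 13.6% of genes had a read in every cell, against 0.866 to 1.81% in each other series. The members took part in this. At least 1 read was counted for a median of 41 members per cell in series 1, lowest cell 28, against series medians of 4.5 to 15.5 elsewhere. A member was therefore called detected at 10 CPM, values at 100 CPM are set beside it, and results that rest on series 1 are also given without it. Col3a1 and Postn, fibrous matrix genes of mesenchyme, reached 10 CPM in 99.7% and 97.96% of cells. Not every listed mesenchyme gene was as widespread, and Twist1 reached 10 CPM in a smaller share of cells, given below.

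Most cells carried few of the members and a smaller set carried nearly all. The number of members at 10 CPM ran from 0 to 48 with a median of 5. In 52.04% of cells it was 5 or fewer, and in 26 cells it was 40 or more. Cells with at least 25 of the 49 members at 10 CPM are called G2/M cells here. The name stands for a range on this count, not for a cell type or for the phase a cell was in. Many of these cells also carried S phase genes, as given below. There were 69 G2/M cells (23.5%, exact Clopper-Pearson 95% interval 18.7 to 28.7%), and 20 cells lay near the threshold, with 20 to 29 members. The 3 cells with 24 members had a median member mean of 3.66 on the log2(CPM + 1) scale, and the 2 cells with 25 had 4.27. With the same 25 members asked for at 100 CPM, 44 cells remained (15.0%, 11.1 to 19.6%). Without series 1 the share at 10 CPM was 20.8%, or 49 cells. After thinning each cell to 250000 reads, which left out 25 shallower cells, it was 22.3%, or 60 cells.

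**Figure D1:**
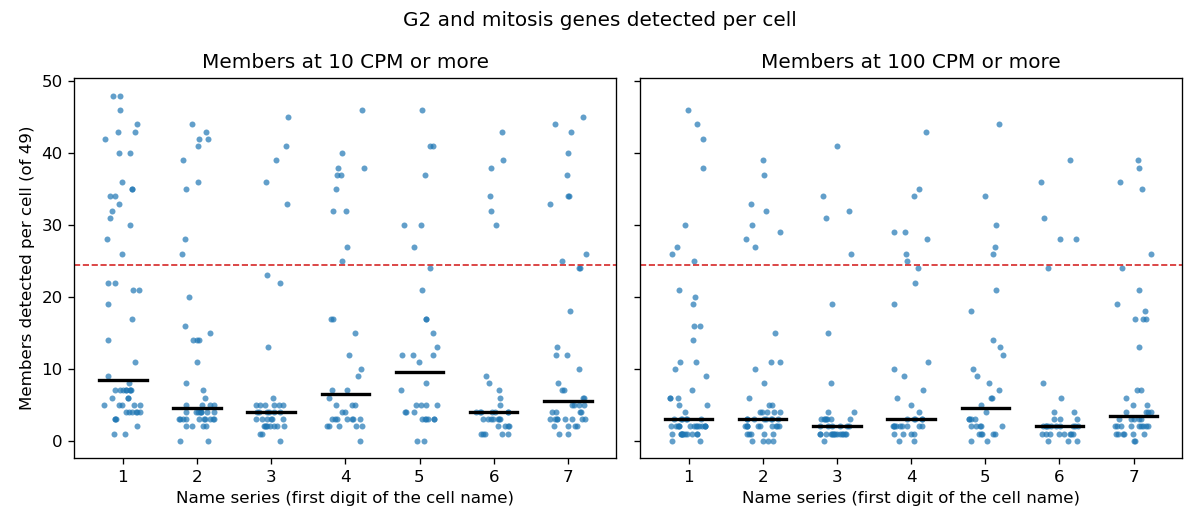
Number of the 49 members at 10 CPM or more (left) and at 100 CPM or more (right), one point per cell, by name series, with black bars at the series medians and a dashed line that cells with 25 or more members lie above. In every series most cells lie near the bottom, and 5 to 20 cells lie above the line at 10 CPM and 5 to 8 at 100 CPM.

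The share of G2/M cells by name series was 34.5% in series 1, 20.8% in series 2, 13.2% in series 3, 28.9% in series 4, 20.6% in series 5, 17.6% in series 6 and 22.7% in series 7. The 95% intervals of all 7 overlapped, also those of the highest, series 1 (22.5 to 48.1%), and the lowest, series 3 (4.41 to 28.1%). Thinned to the same depth the shares were 26.4%, 23.1%, 11.8%, 28.6%, 22.6%, 17.6% and 23.3% in the same order. At 100 CPM they were 13.8%, 16.7%, 13.2%, 21.1%, 14.7%, 14.7% and 11.4%, and series 1 no longer led. G2/M cells were thus counted in each series, and the intervals of every pair of series overlapped at both levels. Such overlap does not show that the shares were equal.

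The G2/M cells of series 1 differed in depth. Of its 20 G2/M cells, 8 also reached 25 members at 100 CPM and had a median total of 1989057.5 reads. The other 12 reached the threshold at 10 CPM only, had a median total of 267059 reads (71923 to 1346042), and held a median of 9.5 members at 100 CPM. The 38 cells of series 1 outside the class had a median total of 1682318.5 reads. In series 2 to 7, 36 of 49 G2/M cells reached 25 members at 100 CPM, and the 13 that did not had a median total of 1037985 reads and a median of 19 members at 100 CPM. The part of low read numbers in the series 1 calls was not tested.

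The mean of log2(CPM + 1) over the 49 members ran from 0 to 8.85 per cell with a median of 1.15 (0.80 to 1.51). Series medians were 2.21, 0.76, 0.56, 0.89, 1.54, 0.57 and 0.80 for series 1 to 7, and the median after thinning was 1.02. Across all cells the G2/M cells had a median total of 1248649 reads and 5723 detected genes, and the others 1166452 reads and 3999 genes. Within series the totals differed in both directions. G2/M cells had the lower median in series 1 (826793.5 against 1682318.5 reads) and series 2, and the higher one in series 3 to 7, up to 1761065 against 582530 reads in series 5. More genes were detected in G2/M cells within each of the 7 series, from 7811.5 against 7671.5 in series 1 to 6337 against 4179 in series 7. The part of depth and of detected gene number in the G2/M calls was not tested.

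Members differed widely in how many cells carried them. The share of cells at 10 CPM ran from 8.16% for Hjurp to 79.6% for Hmgb2, with a median of 24.1%, and 39 of the 49 had a median of 0 CPM. All but Hjurp, Gas2l3, Nek2 and Gtse1 were at 10 CPM in at least 10% of cells. CPM is not corrected for gene length, so these shares compare cells for a gene and are not levels between genes. For each member the cells were also classed by the other 48 genes alone, and those with at least 24 of the 48 at 10 CPM are called high cells for that member, 69 to 72 in number, and the rest low cells. The share of high and of low cells with the member at 10 CPM is given as a description, since members that vary together must differ there. The median over the 49 was 76.1% of high cells and 7.17% of low cells, and 78% and 6.95% without series 1.

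**Figure D2:**
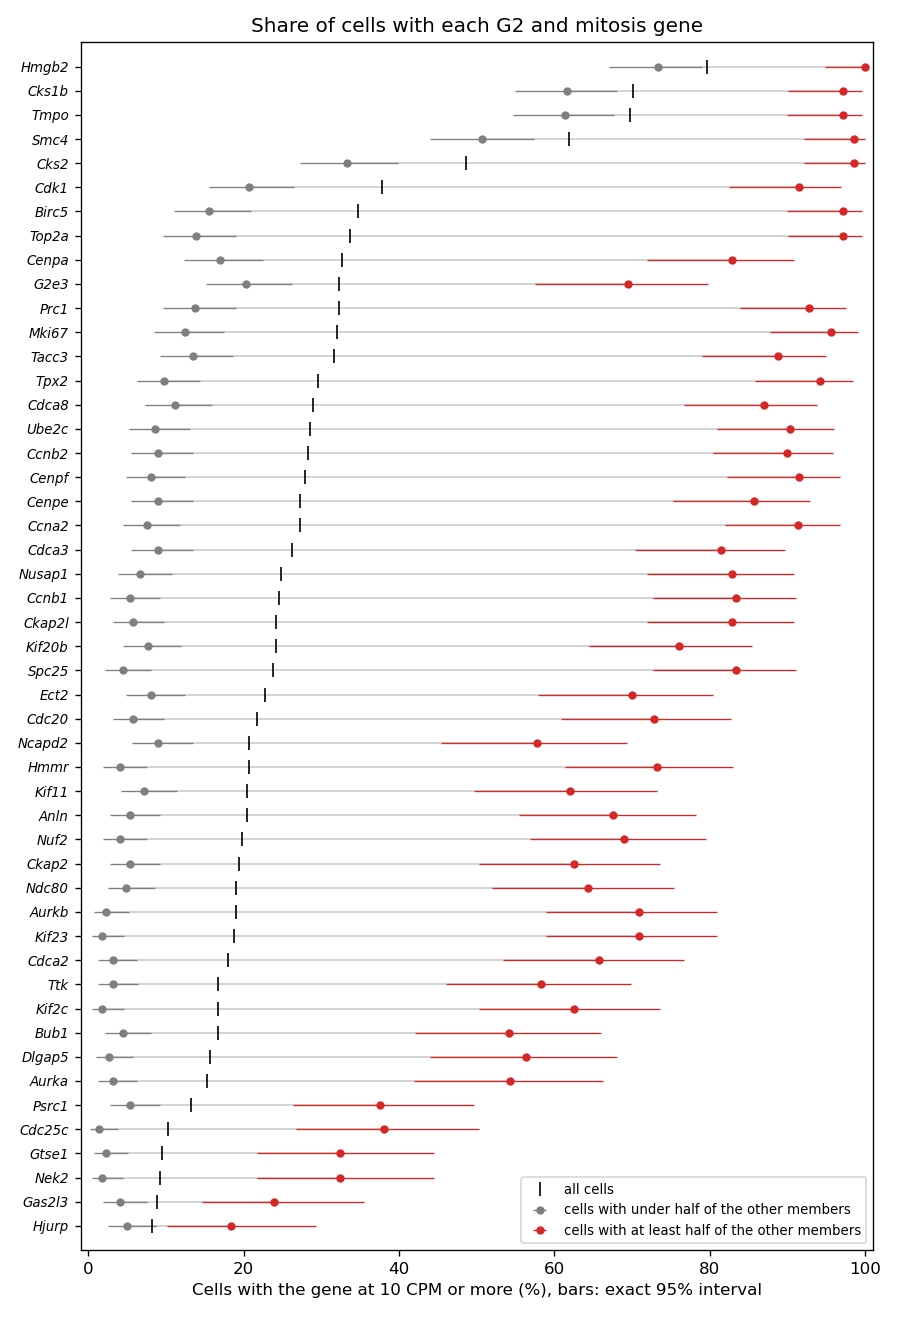
Share of cells with each member at 10 CPM or more, in percent, among high cells (red) and low cells (grey), classed by the other 48 members. Bars are exact 95% intervals and black ticks mark all cells. Among low cells Hmgb2, Tmpo, Cks1b and Smc4 lie far right of the rest at 50.7 to 73.3%, Cks2 lies at 33.3%, and the others lie at 20.6% or less.

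In the CDK1 engine, the cyclins were rare in low cells while their small partners were common there. Cdk1, the kinase itself, ranged from 0 to 1881 CPM over all cells with a median of 1.11, and was at 10 CPM in 91.5% of high cells and 20.6% of low cells. Ccna2, cyclin A2, ranged from 0 to 1378 CPM, median 0, and stood at 91.3% against 7.56%. Ccnb1, cyclin B1, ranged from 0 to 3488 CPM, median 0, with 83.3% of high cells positive and 5.41% of low cells. At 100 CPM Ccnb1 was in 63.9% of high cells and in 0 low cells, so that a share of up to 1.35% remains possible. Ccnb2, cyclin B2, reached 1873 CPM and stood at 90% and 8.93%. Cks1b and Cks2 encode small subunits that help CDK complexes bind their substrates. Cks1b had a median of 175.3 CPM over all cells and was positive in 97.1% of high cells but also in 61.6% of low cells. Cks2 stood at 98.6% and 33.3%, with a highest cell of 4380 CPM. Cdc25c, a phosphatase that removes the inhibitory phosphates from CDK1, was the sparsest of the 7, at 38.03% and 1.35%. Cks1b has near-identical copies in the genome, and how the counting split their reads is not given in the sources used here.

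Among the ubiquitin ligase genes, Cdc20, the activator of the anaphase-promoting complex, was at 10 CPM in 72.9% of high cells and 5.80% of low cells, with values from 0 to 1665 CPM. Ube2c, the enzyme that hands ubiquitin to that complex, stood at 90.3% and 8.56% and reached 3742 CPM. Cdca3, a trigger of mitotic entry, stood at 81.4% and 8.93%. G2e3, a ligase named for its G2 and M phase expression, differed less, with 69.4% against 20.3%.

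The 7 genes of mitotic kinases and the passenger complex had a median share of 58.3% in high cells and 3.15% in low cells. Aurora B (Aurkb) and its passenger partners survivin (Birc5) and borealin (Cdca8) correct wrong attachments of chromosomes to the spindle. Aurkb was at 10 CPM in 70.8% of high cells and 2.25% of low cells, Birc5 in 97.1% and 15.6%, and Cdca8 in 86.96% and 11.1%. Aurka, the Aurora kinase of the spindle poles, stood at 54.3% and 3.12%. The spindle checkpoint kinases Ttk and Bub1 stood at 58.3% and 54.2% of high cells and at 3.15% and 4.50% of low cells. Nek2, a kinase that parts the centrosomes, was at 32.4% and 1.79%, and at 19.6% of high cells without series 1.

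Of the centromere and kinetochore genes, the outer kinetochore genes Ndc80, Nuf2 and Spc25 were in 64.3%, 69.01% and 83.3% of high cells and in 4.91%, 4.04% and 4.50% of low cells. Cenpa, the histone variant that marks the centromere, reached 4513 CPM in its highest cell, with a median of 0 over all cells. Cenpa was in 82.9% of high cells and 17.0% of low cells. Cenpf and the kinesin Cenpe stood at 91.4% and 85.7%, with 8.04% and 8.93% in low cells. Hjurp, the chaperone that deposits Cenpa, was in 18.3% of high cells and 4.93% of low cells, and 1.02% of all cells held it at 100 CPM.

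The 13 spindle genes had a median share of 62.5% in high cells and 5.41% in low cells. Tpx2, a spindle assembly factor that activates Aurora A, was the most widely detected in high cells at 94.2%, against 9.78% of low cells. Tacc3 stood at 88.7% and 13.5%, Nusap1 at 82.9% and 6.70%, and Ckap2l at 82.9% and 5.80%. The motors Kif11, Kif20b and Kif2c were in 61.97%, 76.1% and 62.5% of high cells. At the low end were Psrc1 with 37.5%, Gtse1 with 32.4% and Gas2l3 with 23.9%. In the midzone group Prc1, which bundles the microtubules between the parting chromosomes, stood at 92.8% and 13.8%. Kif23, a motor of the centralspindlin complex, stood at 70.8% and 1.80%. Ect2 and Anln, which set up and scaffold the contractile ring, were in 70% and 67.6% of high cells.

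The chromatin group held genes that were rare in low cells and genes found in most cells. Top2a, the topoisomerase that untangles sister chromatids, ranged from 0 to 3372 CPM with a median of 0.55, and was in 97.1% of high cells and 13.8% of low cells. Mki67, the proliferation marker that coats mitotic chromosomes, stood at 95.7% and 12.4%. Ncapd2, a condensin subunit, stood at 57.7% and 8.97%, and Cdca2 at 65.7% and 3.12%. Smc4, another condensin subunit, was in 98.6% of high cells but also in 50.7% of low cells. Tmpo, a nuclear lamina protein, stood at 97.1% and 61.3%, and Hmgb2, a chromatin protein, at 100% and 73.3%. These 3 genes and Cks1b were the members that 50.7 to 73.3% of low cells also carried. Hmgb2 and Tmpo have related copies elsewhere in the genome, so their reads may be shared with other genes.

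Levels between members can be compared only per length. Per kilobase of annotated exon, the members with the highest median in G2/M cells were Cks2 with 673.6 CPM per kilobase, Cks1b with 527.9, Hmgb2 with 187.3, Birc5 with 152.2 and Ccnb2 with 104.8. Cdk1 stood at 76.9, Ccnb1 at 62.7 and Top2a at 62.3 on this scale. Without series 1 the medians of Cks2, Cks1b, Hmgb2 and Ccnb1 were 892.1, 610.9, 221.6 and 121.2 CPM per kilobase. The annotated exon length counts all isoforms, so a gene with long unused exons is understated.

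The members followed each other from cell to cell. For each gene the Spearman correlation with the mean of the other members was computed across the cells of each series, and its median over the series is given. Cells of a series differ in depth, and the labels do not say what else they share, so the value is a description. All 45 members at 10 CPM in at least 10% of cells had a median correlation of 0.3 or more, as did 4.05% of the 8849 genes tested. The other 4 members, below that detection limit, lay between 0.32 and 0.39. Over the 49 the values ran from 0.32 for Hjurp to 0.79 for Top2a with a median of 0.63, and the median of all genes tested was 0.08. Ccna2 and Cenpf followed Top2a with 0.72 each, then Birc5 and Tacc3 with 0.71. At the lower end, above Hjurp, were G2e3 with 0.33 and Psrc1 with 0.36. A correlation of -0.3 or less was found for 0 members and for 1 gene of all tested (0.0113%), the growth response factor Egr1 with -0.31. Taking out the total count left 45 of 45 members and 3.62% of all genes at 0.3 or more.

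Among the 1176 pairs of members the median correlation was 0.54, from 0.08 to 0.82. The closest pair was Ccna2 and Cdca8 with 0.82 (0.55 to 0.86 over the series). Ccnb2 and Cdc20, an activator of the cyclin's destruction, followed with 0.81 (0.50 to 0.95). Ckap2l and Mki67 reached 0.80, Cenpf and Mki67 0.79, and both Ccnb1 with Nusap1 and Tpx2 with Prc1 0.78. The loosest pair was Hjurp and Psrc1 with 0.08, and 6 of the 10 loosest pairs contained Hjurp.

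**Figure D3:**
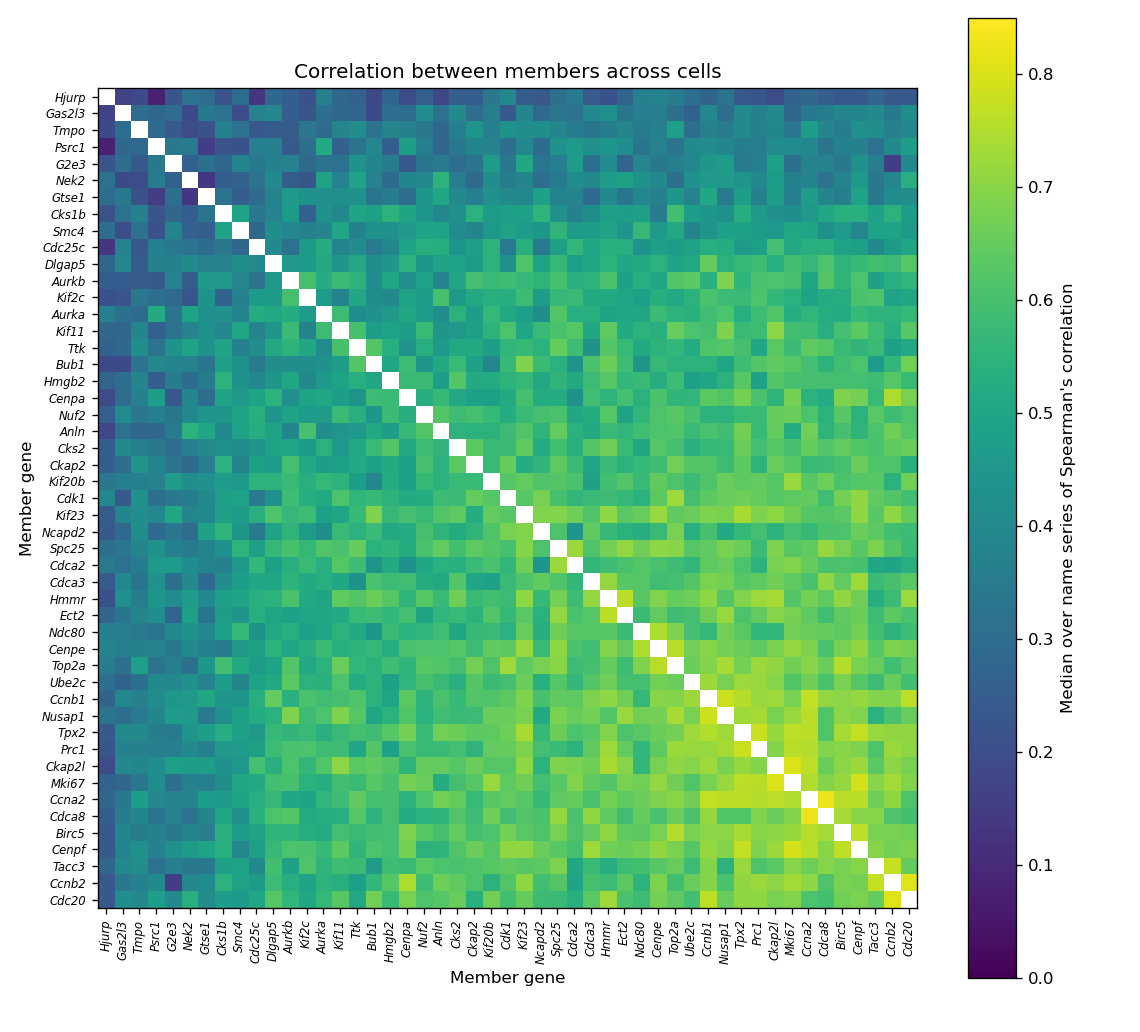
Median within-series Spearman correlation of log2(CPM + 1) for every pair of the 49 members, ordered by hierarchical clustering so that alike members are neighbours, on a colour scale from dark (low) to yellow (high). Every pair is above 0, from 0.08 to 0.82, and the sparse member Hjurp forms a dark row.

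The listed genes that are no members but work in the same pathway are given next. Of 65 further G2 and mitosis genes, 55 were detected widely enough and 46 of these stood at 0.3 or more, against 4.05% of all genes tested. Racgap1, the partner of Kif23, had 0.67, the condensin core gene Smc2 0.63, the checkpoint gene Bub1b 0.62, Mad2l1 0.60, the transcription factor Foxm1 0.54 and the kinase Plk1 0.51. Subunits of the anaphase-promoting complex had lower values, 0.19 for Cdc16 and 0.16 for Cdc27, and Lin52 of the DREAM complex had 0.01. Cdc25a, the phosphatase that acts earlier in the cycle, had 0.12. The genes outside the member list with the highest values over the whole table were 2810417H13Rik (0.68), Racgap1, Hist1h2ae (0.66), C330027C09Rik, Shcbp1, Smc2, Fam64a, Bub1b, Sgol1 and Cep55 (0.61). The lowest after Egr1 were the ribosomal genes Rpl13a and Rps18 and Rpl31-ps12 with -0.24 each, and the collagen Col1a2 with -0.23.

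Genes of S phase, when DNA is copied, were detected in many of the same cells. Of 30 S phase genes, 27 were tested and 22 stood at 0.3 or more, against 4.05% of all genes tested. The median over the 27 was 0.39. The mean of the S phase genes correlated with the member mean by 0.66 (0.41 to 0.75 over the series). At 10 CPM a median of 18 S phase genes was detected in G2/M cells and 5 in the others. At least 15 of the 30 were detected in 72 cells, of which 46 were G2/M cells and 26 were not. G2/M cells also had more genes of any kind detected, a median of 5723 against 3999. The part of this in the S phase counts was not tested.

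To set G2 against late mitosis, 10 members that rise early (Hmgb2, Cdk1, Top2a, Ccna2, Smc4, Tmpo, Ncapd2, Cks1b, Tacc3 and Kif11) were compared with 10 that peak late (Cdc20, Ccnb1, Ccnb2, Cenpa, Cenpe, Aurka, Hmmr, Dlgap5, Nek2 and Psrc1). At least 5 of both lists were at 10 CPM in 61 cells, 5 or more of the early list alone in 50 cells, and 5 or more of the late list alone in 2 cells. Without series 1 these numbers were 44, 37 and 2. Cells with late genes thus almost always had early genes too, while the reverse did not hold. Since 4 early genes, Hmgb2, Tmpo, Cks1b and Smc4, were widespread outside the G2/M class, the lists also differ in how often their genes are detected, and the part of that in these numbers was not tested.

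In the 69 G2/M cells the early list had a median of 9 of 10 genes and never fewer than 6. The late list ran from 0 to 10 genes with a median of 7. Genes of both lists are members and helped to define the class, so both counts depend on its threshold. Hmgb2, Tmpo, Cks1b and Smc4 of the early list were also widespread outside the class. The counts are therefore given as a description, and a nearly complete early list is not read as a result of its own. The mean log2(CPM + 1) of the late list minus that of the early list ranged from -8.00 to 0.98, with a median of -2.18 (-2.77 to -1.21), and 5 cells were above 0. Series medians ran from -3.09 in series 4 to -0.79 in series 1, and without series 1 the median was -2.58. Per kilobase of exon the median was -1.48, with 6 cells above 0, so its place relative to 0 depends on the genes chosen and only the spread between cells is read here.

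**Figure D4:**
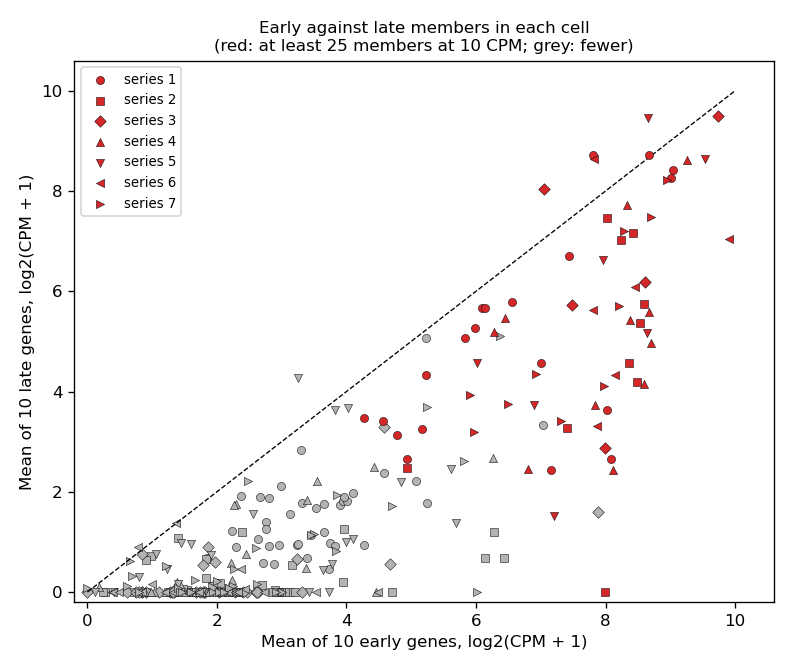
Mean log2(CPM + 1) of the 10 late members against that of the 10 early members, one point per cell, with G2/M cells in red, other cells in grey, the marker shape giving the name series and the dashed line marking equal values. G2/M cells spread over the late axis from 0 upwards, and all but 5 of them lie below the dashed line.

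Along this spread the other members varied too. The Spearman correlation of a gene with the late-minus-early difference was taken over the 69 cells of all series together. The genes of both lists make up the difference. The late list had a median of 0.52, with 10 of 10 genes above 0. The early list had -0.02, with 3 of 10 above 0. Its median was 0.07 without series 1, with 6 of 10. Early genes thus did not fall steadily along the difference, and it is not read as an order from G2 to late mitosis. For the 29 members in neither list the correlation was above 0 for 26, and again for 26 of 29 in the 49 cells without series 1. For the 65 other mitosis genes it was above 0 for 38, and for 41 without series 1. Over all 69 cells the highest was Kif23 with 0.40, also 0.40 without series 1, followed by Cdc25c with 0.37, Cenpf with 0.36, Cks2 with 0.34 and Ube2c with 0.33. Without series 1 Ube2c, Cks2 and Cenpf led with 0.54, 0.52 and 0.45. Aurkb (-0.13), Mki67 (-0.08) and Spc25 (-0.04) were below 0. Of the other mitosis genes, Cdc25b had 0.52, Depdc1a 0.46 and Plk1 0.45, and Mybl2, which encodes B-Myb, had -0.42. Without series 1 these were 0.33, 0.40, 0.42 and -0.43, and Foxm1 led with 0.47, against 0.33 over all 69 cells. All 30 S phase genes were below 0, with a median of -0.30, led by Slbp with -0.50 and Clspn with -0.47, and all 30 were also below 0 without series 1. The share of all genes above or below 0 is not given here, so these counts are not read as particular to the lists. Series medians of the difference ran from -3.09 to -0.79, and the part of differences between series in these correlations was not tested. These cells share depth differences, and each value describes 1 set of cells.

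Acta2, the smooth muscle actin, and Twist1, a transcription factor of undifferentiated mesenchyme, showed no steady relation to the members. The Spearman correlation of Acta2 with the member mean was -0.01, -0.14, 0.20, -0.25, 0.08, -0.18 and 0.36 in series 1 to 7, with a median of -0.01. For Twist1 it was -0.03, -0.12, 0.06, 0.12, 0.09, 0.10 and -0.22, with a median of 0.06. Neither gene kept 1 sign over the series. In series 7 the median of Acta2 was 1044 CPM in 10 G2/M cells and 1.98 in 34 others, and in series 2 it was 35.7 in 10 G2/M cells and 324 in 38 others.

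Acta2 was at 10 CPM in 66.7% of G2/M cells (54.3 to 77.6%) and 60.4% of the others (53.7 to 66.9%), and without series 1 in 53.1% and 52.4%. Both a G2/M call and Acta2 were found in 46 cells (15.6%, 11.7 to 20.3%), against 15.9% from the product of the shares within series. The product lay within the interval of the observed share. For Twist1 the joint count was also 46 cells (15.6%, 11.7 to 20.3%), against a product of 13.9%. Without series 1 the joint share of Twist1 was 15.3% (10.9 to 20.5%) against 12.9%. Both products for Twist1 were below the observed share and within its interval. Twist1 was at 10 CPM in 66.7% of G2/M cells (54.3 to 77.6%) and 56.9% of the others (50.1 to 63.5%). Without series 1 this was 73.5% (58.9 to 85.1%) against 57.8% (50.3 to 64.9%), and at 100 CPM over all cells 31.9% against 29.3%. The intervals of G2/M cells and of the others overlapped in each of these comparisons, which does not show that the shares were equal.

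**Figure D5:**
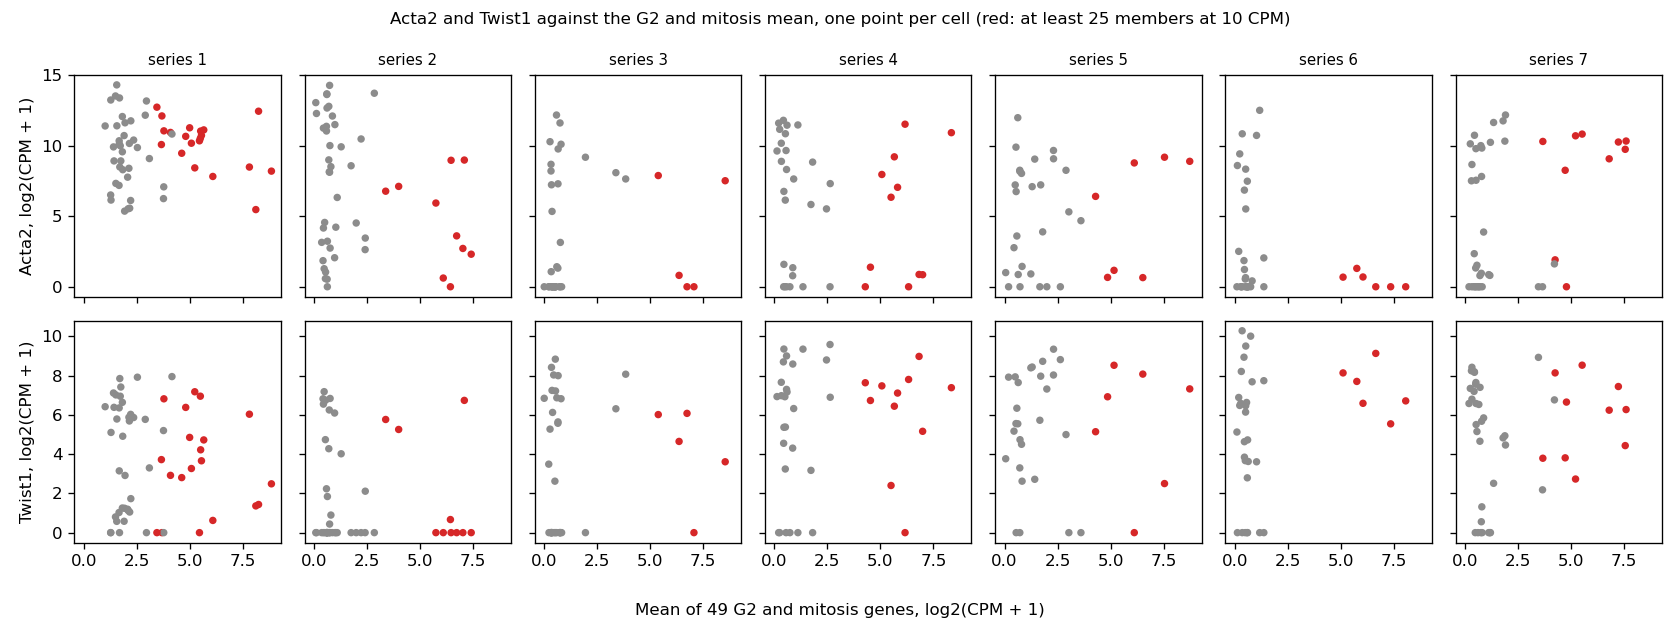
Acta2 and Twist1 as log2(CPM + 1) against the mean log2(CPM + 1) of the 49 members, one point per cell, with a panel for each name series and G2/M cells in red. Cells with a high member mean lie at both low and high Acta2 and Twist1.

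Of 8 smooth muscle genes and 10 mesenchyme genes, 0 reached a median correlation of 0.3 or more, or of -0.3 or less, with the members. Over all genes tested the shares were 4.05% and 0.0113%, so counts of 0 say nothing particular to these lists. Their medians were -0.01 and -0.02, against 0.08 over all genes tested. Markers of other cell types were checked in the same cells. The summed epicardial markers Wt1 and Tbx18 reached 100 CPM in 56.5% of G2/M cells and 32.4% of the others, with ranges of 0 to 1559 and 0 to 4092 CPM. Nearly all of this came from Tbx18, at 100 CPM in 53.6% and 31.1%, while Wt1 was there in 5.80% and 3.11%. Cardiomyocyte markers did so in 15.9% and 24%, glial markers in 7.25% and 5.78%, endothelial markers in 24.6% and 19.1% and melanocyte markers in 2.90% and 0.889%. Summed cardiomyocyte markers reached 37512.5 CPM in the highest G2/M cell and 3212 in the highest other cell, with medians of 1.05 and 0.87. For the glial, endothelial and melanocyte sums the highest cell was not a G2/M cell. Of the endothelial markers Tek was at 100 CPM in 21.7% and 16.4%, Pecam1 in 2.90% and 2.67%, and Kdr in 0 and 0.444%. The melanocyte marker Tyr reached 10 CPM in 0 cells of either set, which allows shares of up to about 4.35% and 1.33%. Their part in the members' values was not tested. Blood markers were not analysed here.

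By name series the highest mean CPM fell in series 5 for 17 of the 49 members (34.7%, against 19.4% of 13109 genes), among them Cdk1, Cks2, Cdc20, Ube2c and Birc5. Series 4, with Ccnb1, Ccnb2 and Top2a, and series 6, with Cenpf, Bub1 and Hmmr, were highest for 11 members each. Series 4, 5 and 6, put together after their values were seen, held the highest mean of 39 members (79.6%, against 47.3% of genes). Series 7 was highest for Cdc25c alone. A mean over a series rests on its few G2/M cells, 5 to 20 of them, so no series is set above another by these counts.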

How the data were processed

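Single-cell RNA was measured in all cells of the series. The authors deposited raw counts, whole reads per gene, and a second table, named SCT, whose values are a score: rounded whole numbers with totals of 1110845 to 1216916 per cell, whose making is not given in the sources used here. HISAT2 2.1.0, featureCounts, Seurat and mm10 are listed per the submitters' processing notes, with no role or order. Reads carry no molecular identifiers per the labels' protocols, so intervals cover counting error only. Cells were imaged for single capture per the labels, and no doublet caller was run. No 2 cells had identical columns (0 found).

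Counts were scaled to CPM in Python 3.11.15 with numpy 2.4.6, pandas 2.3.3 and scipy 1.17.1, and logs used a pseudocount of 1 CPM. Correlations with the member mean and between members were taken within name series. Those with the member mean covered 8853 genes at 10 CPM in at least 10% of cells. A value in 4 series was needed, which 4 genes lacked. Correlations with the late-minus-early difference were taken over the G2/M cells of all series together. Shares carry exact Clopper-Pearson and medians order-statistic 95% intervals. Members and lists were chosen with earlier results of these data known. Named genes are the members, the listed genes, and the 10 highest and 5 lowest other genes by correlation. Gene positions and exon lengths come from GENCODE M21 on GRCm38. Alternatives covered detection level, class threshold, thinning, pseudocount, the SCT table and leaving out each name series.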

Additional observations from a re-analysis of the deposited data

How the results depend on the processing

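The share of G2/M cells, 23.5%, was 38.4% at 1 read, 18.4% at 50 CPM, 15.0% at 100 CPM, 29.6% when a smaller number of members (1 in 3) was asked for and 17.3% when a larger number (2 in 3) was. At 1 read it was 100% in series 1 and 15.8 to 29.5% in each other series, so the value at 1 read rests on series 1. At 100 CPM with cells thinned to 250000 reads, chosen after seeing the data, the share over all cells was 15.6%. Thinning alone, the SCT table and leaving out any 1 name series kept it within its interval. The median member mean, 1.15, was -1.53 with a pseudocount of 0.1 CPM and 3.78 with 10 CPM, and 0.75 to 1.36 on leaving out 1 series, lowest without series 1. The median share of cells per member, 24.1%, was 39.1% at 1 read and 15.3% at 100 CPM. Without series 1, 4 members left their interval: Ccnb1 (19.1%), Nek2 (5.51%), Cks1b (64.4%) and Anln (15.7%). Among genes in at least 30% of cells, which left fewer genes, 13 of 13 members, 7 of 11 other mitosis genes and 3.10% of 4423 genes had a correlation of 0.3 or more. With all cells as 1 stratum 9.40% of 8853 genes did, and the cause was not tested. The late-minus-early median stayed between -2.71 and -1.33 under every alternative run. The median correlation ran from -0.09 to 0.18 for Acta2 and from -0.00 to 0.12 for Twist1. No paired analysis was possible because the cells form 1 group. Cells with few reads limit what the 10 CPM level shows: below 100000 reads, 1 read reaches it.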

Other observations

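A list of 13 genes that act on entry into or exit from the cycle was also read, holding CDK inhibitors and antiproliferative genes along with the D cyclins, which drive entry. Of the 12 detected widely enough, 0 had a median within-series correlation with the member mean of 0.3 or more, or of -0.3 or less, against 4.05% and 0.0113% of all genes tested, so the counts say nothing particular to this list. The highest of the 12 was Cdkn2d (a CDK4 and CDK6 inhibitor), with 0.24, at 10 CPM in 68.1% of G2/M cells and 21.3% of the others. Cdkn2c (of the same family), too rare for the correlation set, was in 30.4% and 3.11%. Its correlation was higher, 0.38 (-0.07 to 0.42 over the series). Cdkn1b (p27) was in 42.03% and 20.9% with a correlation of 0.13. Cdkn1c (p57) was in 59.4% and 48% at 10 CPM but in 24.6% and 36.4% at 100 CPM. Of the 12, Ccnd2 (cyclin D2) and Btg2, an antiproliferative gene, had the lowest values, -0.12 and -0.13, and were in 63.8% and 43.5% of G2/M cells against 76% and 50.2% of the others. Cells with many genes detected include more G2/M cells, and the part of this in the shares at 10 CPM was not tested.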
